A study of Mus musculus with 6 samples.

Results

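The Ly6 genes Ly6a, Ly6c1, Ly6c2 and Ly6e encode small surface proteins of the Ly6/uPAR family that are held in the membrane by a glycosylphosphatidylinositol (GPI) anchor. They were measured by RNA sequencing in CD8 T cells from mouse spleen. They are 4 of the 49492 rows of the deposited count table, selected by symbol, and all 4 passed the low-count filter, as did 15186 rows in all. The set was chosen because Ly6e and Ly6c2 were higher in the KO libraries, so the KO to WT differences of the members are given as description, with no test.

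KO libraries came from NIK-CD4Cre-OT-I mice and WT libraries from wild type OT-I mice, both on a C57/BL6 background and 6 to 8 weeks old. NIK, the product of Map3k14, is a kinase of noncanonical NF-kB signalling, and Cd4-driven Cre acts in developing T cells of both the CD4 and CD8 lineages. Both genotypes carry the OT-I transgenic receptor, which recognises a peptide of ovalbumin. Naive CD8 cells of both genotypes were stimulated for 24 hours with plate-bound anti-CD3 (1 µg/ml) and soluble anti-CD28 (1 µg/ml), with 3 libraries per genotype. No unstimulated library was analysed here, and it is not labelled whether a library is 1 mouse, so errors describe the spread between these libraries.

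Ly6 proteins consist of a cysteine-rich fold with 3 loops, and many of them mark stages of lymphocyte and myeloid development. Ly6a is Sca-1, a marker of haematopoietic stem cells that also appears on activated T cells. Ly6c1 and Ly6c2 encode the Ly6C antigen of monocytes, endothelial cells and memory CD8 T cells, and Ly6e is the thymic antigen TSA-1, or Sca-2. Interferons are known to induce Ly6a, Ly6c and Ly6e.

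The 4 genes lie in 1 cluster on chromosome 15, and GENCODE annotates all of them as protein-coding on GRCm38. Ly6e occupies chr15:74955051-74959905 on the plus strand. Ly6a (chr15:74994877-74998031), Ly6c1 (chr15:75044018-75048830) and Ly6c2 (chr15:75108158-75111970) lie on the minus strand. The coding sequences of Ly6c1 and Ly6c2 were identical at 352 of 393 aligned bases (89.6%). Ly6a shared 83.5% of aligned coding bases with Ly6c2 and 75.8% with Ly6c1. Ly6e was the most distant member, with 49.5% to 53.7% identity to the other three.

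The start-site windows of the Ly6C genes are shown because their sequence and their output can be set side by side. RefSeq (GRCm38.p6) gave windows from 250 bases before to 50 bases after an annotated start for 2 of the 4 members, Ly6c1 and Ly6c2, and none was printed for Ly6a and Ly6e. Each sequence is the most upstream window of its gene, 5′ to 3′ on the minus strand. Capitals mark bases without a match in the other gene: Ly6a2 for the Ly6c2 line, and Ly6c2 for the lines of Ly6a2 and Ly6c1. Bases outside the alignment were not compared and are in lower case too: they open the lines of Ly6a2 and Ly6c1, before the first ggcaagc, where these windows reach beyond that of Ly6c2.
Ly6c2: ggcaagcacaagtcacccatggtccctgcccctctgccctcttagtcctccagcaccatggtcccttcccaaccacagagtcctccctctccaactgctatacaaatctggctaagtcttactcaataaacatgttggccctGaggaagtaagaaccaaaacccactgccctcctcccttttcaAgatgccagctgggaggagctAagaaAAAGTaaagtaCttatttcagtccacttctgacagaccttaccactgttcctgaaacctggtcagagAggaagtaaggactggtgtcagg
Ly6a2: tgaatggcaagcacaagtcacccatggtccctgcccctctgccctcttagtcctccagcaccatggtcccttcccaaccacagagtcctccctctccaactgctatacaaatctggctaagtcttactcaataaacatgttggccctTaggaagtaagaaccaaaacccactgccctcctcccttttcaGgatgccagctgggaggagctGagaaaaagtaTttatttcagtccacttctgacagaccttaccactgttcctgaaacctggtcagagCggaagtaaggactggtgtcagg
Ly6c1: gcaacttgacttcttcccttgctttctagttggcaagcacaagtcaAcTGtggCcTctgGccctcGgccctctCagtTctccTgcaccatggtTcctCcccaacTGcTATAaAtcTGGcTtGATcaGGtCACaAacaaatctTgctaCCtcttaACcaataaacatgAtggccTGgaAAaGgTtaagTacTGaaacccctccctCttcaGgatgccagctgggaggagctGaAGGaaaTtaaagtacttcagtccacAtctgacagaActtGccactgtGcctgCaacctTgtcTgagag
These windows are chr15:75111922-75112221 for Ly6c2, chr15:75135079-75135378 for Ly6a2, a neighbouring family member, and chr15:75048788-75049087 for Ly6c1. Ly6c2 and Ly6a2 matched at 290 of 295 aligned bases (98.3%) with 1 gap. The output of these near-identical windows was far apart: Ly6c2 had 3188, 1177 and 2000 counts in KO replicates 4, 5 and 6, and 365, 1118 and 790 counts in WT replicates 1, 2 and 3. Ly6a2 had 0, 1 and 0 counts in the KO libraries and 3, 0 and 1 in the WT libraries. Of the stretches of annotated Ly6a2 transcripts, 9.58% at 50 bases and 0% at 100 bases also occur in transcripts of another gene. Copies elsewhere in the genome were not compared, and loss of Ly6a2 reads was not tested. Ly6c1 matched Ly6c2 at 208 of 266 aligned bases of the window (78.2%), with 4 gaps.

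Motifs of interferon and NF-kB signalling were looked for on both strands of the 4 annotated windows of Ly6c1 and Ly6c2. The core of the interferon-stimulated response element (GAAA, any 2 bases, GAAA), the gamma-activated site (TTCNNNGAA) and a kappa B sequence (GGG, any 2 bases, TTTCC) had 0 matches in each. Among all 32851 RefSeq windows of 300 bases, 3.44% held the first, 8.30% the second and 1.63% the third. The absence of a match says only that these letters are not in these windows.

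The libraries held 41311346 to 47851445 counts, at which 3 counts correspond to 0.0627 to 0.0722 CPM (counts divided by TMM-adjusted library size), for counting error only. The targeted gene Map3k14 had 2425, 2837 and 2271 counts in KO replicates 4, 5 and 6, and 2406, 2992 and 3025 counts in WT replicates 1, 2 and 3. These overlap, and a count over the whole gene need not show a deletion of some exons, so every direction here is between libraries as labelled. The summed level of 11 CD8 T cell markers was 2843 to 3012 CPM in KO libraries and 2783 to 2971 CPM in WT libraries, led by Cd8a, Lck and Cd5. Cd4 averaged 0.828 CPM ± 0.0996 in KO libraries and 0.608 CPM ± 0.209 in WT libraries (SD, n = 3 each). Of 5 CD4 T cell markers, 2 had positive and 3 negative log2 folds of KO over WT. Their median was -0.47, and -0.11 without WT replicate 2. Zbtb7b averaged 7.91 CPM ± 3.00 in KO libraries and 12.1 CPM ± 5.47 in WT libraries. Foxp3 averaged 3.25 CPM ± 1.47 in KO libraries and 6.55 CPM ± 4.34 in WT libraries. Ctla4, the most abundant of the 5, had a log2 fold of 0.22. Both genotypes mixed the sexes: KO replicate 6 and WT replicates 1 and 3 carried high Xist counts, and the other three carried counts of Y-linked genes.

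Ly6e was abundant and tightly measured. It had 378, 398 and 425 CPM in KO replicates 4, 5 and 6, and 301, 310 and 284 CPM in WT replicates 1, 2 and 3. Every KO library lay above every WT library. The means were 400.3 CPM ± 23.5 in KO libraries and 298.4 CPM ± 13.3 in WT libraries (SD, n = 3 each), which corresponds to a 1.34-fold level in KO libraries (log2 fold 0.42, SE 0.06). The log2 fold stayed between 0.38 and 0.46 when any 1 library was left out. Within the females it was 0.54 (1 KO and 2 WT libraries) and within the males 0.32 (2 KO libraries and 1 WT library).

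Ly6c2 showed the widest difference and the widest spread of the 4. It had 66.6, 26.8 and 48.1 CPM in KO replicates 4, 5 and 6, and 8.13, 24.5 and 17.1 CPM in WT replicates 1, 2 and 3. The groups did not overlap, but KO replicate 5 lay close above WT replicate 2. The means were 47.2 CPM ± 20.0 in KO libraries and 16.6 CPM ± 8.18 in WT libraries (SD, n = 3 each), a 2.85-fold level in KO libraries (log2 fold 1.51, SE 0.46). Leaving out 1 library gave log2 folds from 1.18 (without KO replicate 4) to 1.91 (without WT replicate 2). The log2 difference was 2.03 within the females and 0.79 within the males.

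**Figure D1:**
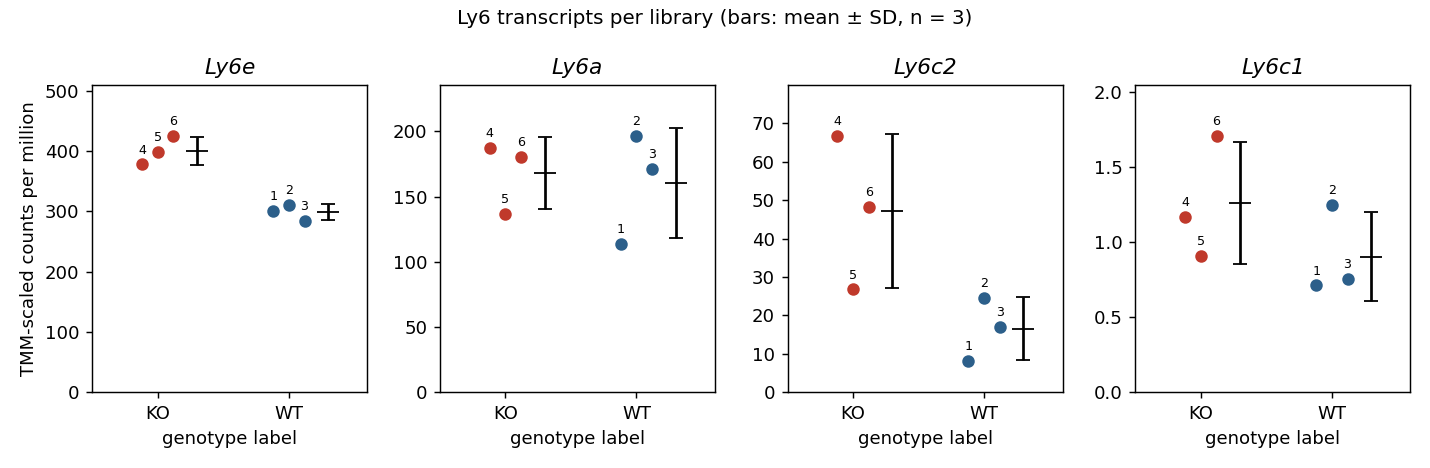
TMM-scaled CPM of Ly6e, Ly6a, Ly6c2 and Ly6c1 in each library (points, with replicate numbers), KO left and WT right, each panel on its own axis from 0. Bars are mean and SD of 3 libraries. KO and WT points are separate for Ly6e and Ly6c2 and interleave for Ly6a and Ly6c1.

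Ly6a, the Sca-1 gene, did not separate the genotypes. It had 187, 137 and 180 CPM in KO replicates 4, 5 and 6, and 114, 196 and 172 CPM in WT replicates 1, 2 and 3. The highest and the lowest values were both in WT libraries. The means were 168.1 CPM ± 27.4 in KO libraries and 160.6 CPM ± 42.3 in WT libraries (SD, n = 3 each). The log2 fold was 0.07 (SE 0.21), and it turned negative without WT replicate 1 (-0.13) and without KO replicate 4 (-0.019). Within the females it was 0.37 and within the males -0.30.

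Ly6c1 had the lowest level of the 4, with 56, 40 and 71 counts in KO replicates 4, 5 and 6 and 32, 57 and 35 counts in WT replicates 1, 2 and 3. These correspond to 1.17, 0.909 and 1.71 CPM in KO libraries and to 0.713, 1.25 and 0.755 CPM in WT libraries. WT replicate 2 lay above KO replicates 4 and 5. The means were 1.26 CPM ± 0.408 in KO libraries and 0.905 CPM ± 0.297 in WT libraries (SD, n = 3 each), with a log2 fold of 0.48 (SE 0.32), which was 0.20 without KO replicate 6 and 0.78 without WT replicate 2. Within the females the difference was 1.22 log2 units, and within the males -0.27.

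In the test across all genes, edgeR's quasi-likelihood test called 0 of the 4 members, against 0.00659% of tested genes (1 gene, Ms4a4c). At an unadjusted p under 0.05 in the same test, 2 members passed, against 7.26% of tested genes, and both were higher in KO libraries, against 3.82%. Every KO library lay above every WT library for these 2, Ly6e and Ly6c2, against 6.68% of tested genes, and below every WT library for 0, against 6.07%. DESeq2 called 1 member, Ly6e, against 0.65% of its tested genes (0.45% higher in KO libraries), and edgeR without a low-count filter also called Ly6e, against 0.0381%. Since this contrast chose the members, nothing is read from these shares.

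Ly6c transcripts came almost wholly from Ly6c2 in this count. The ratio of Ly6c2 to Ly6c1 counts was 56.9, 29.4 and 28.2 in KO replicates 4, 5 and 6, and 11.4, 19.6 and 22.6 in WT replicates 1, 2 and 3. The lowest KO ratio was above the highest WT ratio. Since Ly6c2 was chosen for being higher in KO libraries, nothing is read from this separation. Reads can be lost or misplaced between these copies: 32.8% of the distinct 50-base stretches of Ly6c1 transcripts also occur in transcripts of another gene, of which Ly6c2 holds 21.5% of the Ly6c1 stretches and Ly6a 11.1%. The shared share was 14.5% for Ly6c2, 19.0% for Ly6a and 0% for Ly6e, and at 100 bases it was 10.1% for Ly6c1, 5.81% for Ly6c2 and 1.45% for Ly6a. The sources used here do not give the read length. With Ly6c1 and Ly6c2 counted as 1 gene the log2 fold was 1.47, close to that of Ly6c2 alone.

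Per kilobase of merged exons (RPKM), Ly6a had the highest level and Ly6c1 the lowest in all 6 libraries. The levels of Ly6a were 139.5 RPKM ± 22.8 in KO libraries and 133.3 RPKM ± 35.1 in WT libraries (SD, n = 3 each). Ly6e followed at 105.8 RPKM ± 6.20 in KO libraries and 78.9 RPKM ± 3.50 in WT libraries, then Ly6c2 at 17.2 RPKM ± 7.28 in KO libraries and 6.04 RPKM ± 2.99 in WT libraries. Ly6c1 was at 0.753 RPKM ± 0.243 in KO libraries and 0.540 RPKM ± 0.177 in WT libraries. Ly6a and Ly6e exceeded 98.2% and 97.1% of 14739 tested genes with a known length, Ly6c2 70.0% and Ly6c1 21.8%. Retained-intron transcripts lengthen the annotated exons of Ly6c2 to 2740 bases from 868 bases in its protein-coding transcripts, and such transcripts add to Ly6e as well. With protein-coding transcripts alone, Ly6e averaged 139.2 RPKM and Ly6a 136.4 RPKM over the 6 libraries, a difference within their spread, and Ly6c2 36.7 RPKM. The order of Ly6a and Ly6e thus depends on the length used, while Ly6c2 stayed below both and Ly6c1 last.

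Spread between libraries of the same genotype set the members apart from each other. A choice by the difference between 3 KO and 3 WT libraries can favour genes of wide spread, so the ranks below are description. The SD of log2 CPM within genotypes was 0.74 for Ly6c2, a value exceeded by few genes of like level: 99.6% of the 4023 genes within a factor of 2 in mean CPM had a smaller one, with a median of 0.085. For Ly6a the SD was 0.34, above that of 98.8% of 2480 genes of like level. Ly6e, with an SD of 0.075, stood at 51.3% of 1116 such genes, and Ly6c1, with 0.41, at 77.7% of 2413. From highest to lowest library, Ly6c2 covered 2.49 times in KO libraries and 3.01 times in WT libraries, and Ly6e 1.12 times in KO libraries and 1.09 times in WT libraries.

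**Figure D2:**
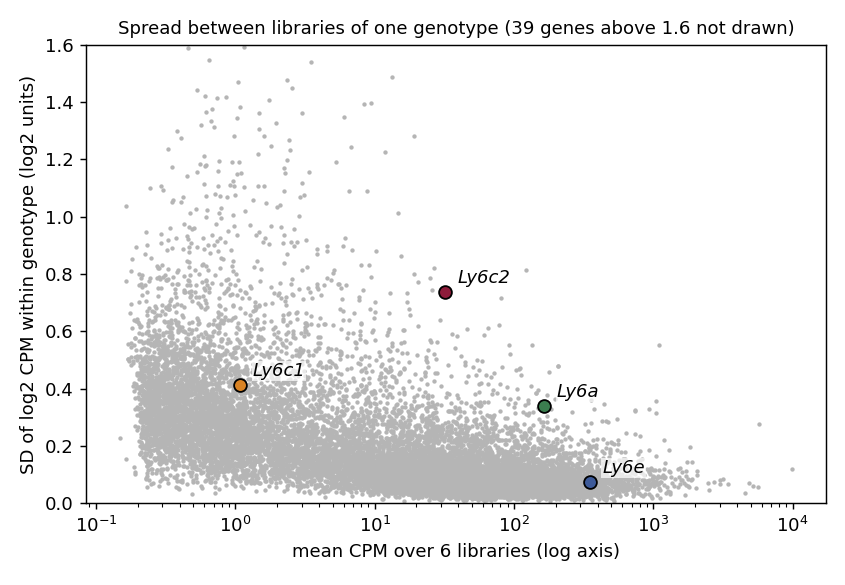
SD of log2 CPM around the genotype means (vertical axis, log2 units) against mean CPM (horizontal log axis) for each tested gene in grey, with the 4 Ly6 genes in colour. Ly6c2 (0.74) and Ly6a (0.34) lie at the upper edge of genes of their level, and Ly6e (0.075) lies in the middle of its neighbours.

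Within each genotype, Ly6a, Ly6c1 and Ly6c2 shared their lowest library. KO replicate 5 was the lowest KO library and WT replicate 1 the lowest WT library for all 3. The share of all tested genes with these lowest libraries was not worked out, so this is description. Ly6e had other lowest libraries, KO replicate 4 and WT replicate 3. WT replicate 2 was the highest WT library for every member, Ly6e included. The mean centred level of 48 interferon-stimulated genes, with Ly6 genes left out, was 0.13, -0.082 and 0.73 log2 units in KO replicates 4, 5 and 6, and -0.41, -0.061 and -0.30 in WT replicates 1, 2 and 3. KO replicate 5 and WT replicate 1 were also the lowest of their genotypes in this mean, and WT replicate 2 was the highest WT library. KO replicate 6 was highest in it, whereas Ly6c2 was highest in KO replicate 4.

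**Figure D3:**
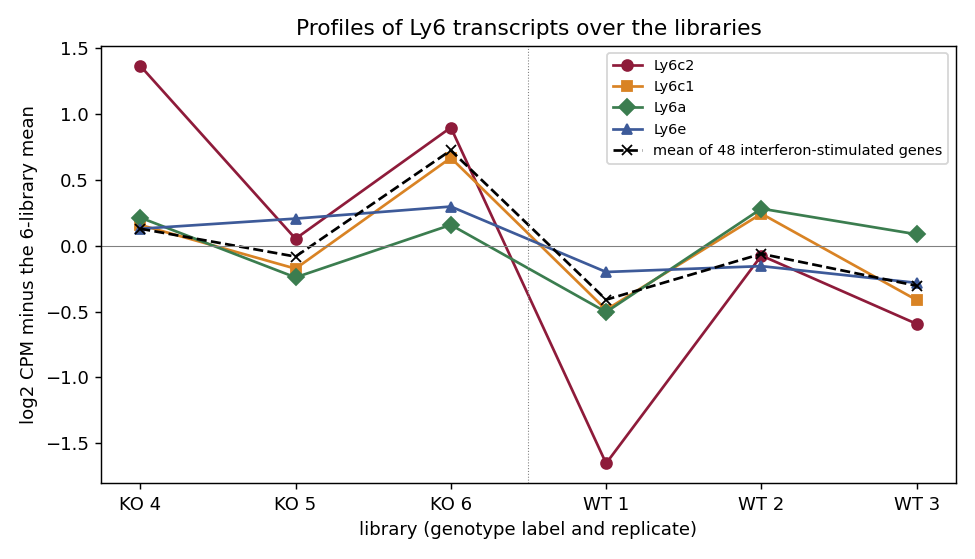
Log2 CPM minus the mean of the 6 libraries (vertical axis, log2 units) for the 4 Ly6 genes and for the mean of 48 interferon-stimulated genes, by library, KO libraries left of the dotted line and WT libraries right of it. Ly6a, Ly6c1 and Ly6c2 dip in KO 5 and WT 1, as does the interferon-stimulated mean, and Ly6e does not follow these dips.

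The genes with the most similar profiles differed by member. Likeness was the root mean square difference of centred log2 CPM over the 6 libraries among the 9646 genes averaging 5 CPM or more, and it includes the difference between genotypes. Ly6c2 was most like Usp18, which removes ISG15 from proteins (0.38 log2 units), a gene listed under a clone name only (0.47) and Mx1, an interferon-induced GTPase (0.51). Usp18 had 17.3, 11.1 and 22.7 CPM in KO replicates 4, 5 and 6, and 5.15, 11.3 and 7.49 CPM in WT replicates 1, 2 and 3, with WT replicate 2 above KO replicate 5. Ly6c1 was most like Cd86, a costimulatory ligand (0.060), Isg20, an interferon-induced exonuclease (0.077), and Oas3, a sensor of double-stranded RNA (0.085).

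The profile of Ly6a was closest to those of Aim1 (0.068 log2 units), Cd96, a receptor of T and NK cells (0.10), and Rps3a1, a ribosomal protein gene with near-identical copies, so that its count is uncertain (0.11). Rps3a1 had 1089, 781 and 1102 CPM in KO replicates 4, 5 and 6, and 760, 1288 and 1225 CPM in WT replicates 1, 2 and 3, and so shared the low KO replicate 5 and WT replicate 1. Ly6e was closest to Nmral1 (0.051), Chd3, a chromatin remodeller of the NuRD complex (0.056), and Zfp882, a zinc finger gene (0.062). Chd3 had 310, 339 and 351 CPM in KO replicates 4, 5 and 6, and 261, 240 and 226 CPM in WT replicates 1, 2 and 3, without overlap. EdgeR did not call Chd3, at a log2 fold of 0.46 with the low-count filter, and called it without the filter (adjusted p = 0.019). DESeq2 called it as well (adjusted p = 2.9e-05).

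The rest of the Ly6 cluster was low or silent in these cells. Of 17 other cluster genes with a row, 7 had no count in any library, 5 passed the low-count filter and 0 were called by edgeR or DESeq2. Of the 5, 0 had an unadjusted p under 0.05. Ly6d, known from B cell development, averaged 2.69 CPM ± 0.424 in KO libraries and 3.66 CPM ± 2.42 in WT libraries (SD, n = 3 each), and its log2 fold of -0.44 turned positive without WT replicate 2 (0.24). Ly6k averaged 3.62 CPM ± 2.28 in KO libraries and 2.78 CPM ± 1.29 in WT libraries, with a log2 fold of 0.38 that turned negative without KO replicate 4. Lynx1, a modulator of nicotinic receptors, averaged 1.66 CPM ± 0.553 in KO libraries and 1.57 CPM ± 0.536 in WT libraries, and its log2 fold of 0.08 turned negative without WT replicate 3 or KO replicate 6. Ly6g, the neutrophil antigen, had 0 counts in each KO library and 1 count in each WT library. In a window reaching 0.5 Mb beyond the members, 9 tested genes were not members, 5 with positive and 4 with negative log2 folds, and 0 had an unadjusted p under 0.05 in edgeR's test.

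**Figure D4:**
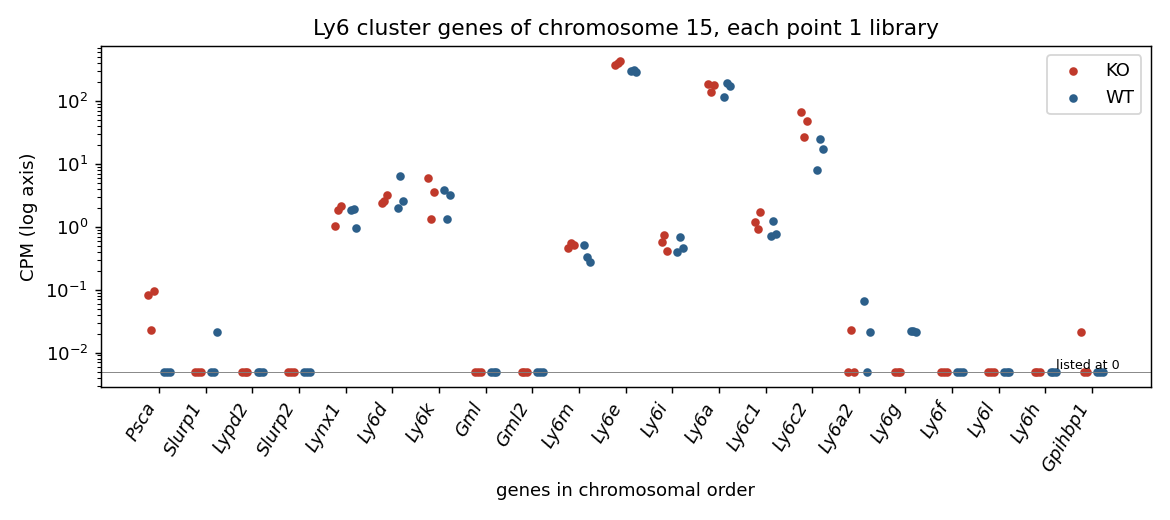
CPM (vertical log axis) of the Ly6 cluster genes of chromosome 15 with a row and a position, in chromosomal order, 1 point per library, KO left of WT. Points on the grey line are listed at 0. Ly6e, Ly6a and Ly6c2 stand above the other cluster genes in every library, whose levels are 6.44 CPM or lower.

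Interferon-stimulated genes other than Ly6 mostly had higher values in KO libraries. Of 48 tested, 46 had positive log2 folds (52.4% of all tested genes did), with a median of 0.51 against 0.0071 for all tested genes. EdgeR called 0 with all libraries, and Ifit2 without WT replicate 1 (adjusted p = 0.046). At an unadjusted p under 0.05, 20 were higher, against 3.82% of tested genes, and 0 were lower. Every KO library lay above every WT library for 15 of the 48, against 6.68% of tested genes. DESeq2 called 10, all higher. The median was 0.20 without KO replicate 6. By level the list was led by the guanylate-binding protein gene Gbp2, with 1115 CPM ± 111 in KO libraries and 982 CPM ± 123 in WT libraries, Igtp, with a log2 fold of 0.024, and Parp14, with a log2 fold of 0.38. The smallest p-values belonged to Oas1a (log2 fold 1.90), Iigp1 (0.50), Ifit2 (0.61) and Cxcl10 (1.23), whose groups did not overlap.

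Receptors and signal carriers of interferon were not called. Of 18 tested, 13 had positive log2 folds with a median of 0.085, and edgeR and DESeq2 called 0. The median was 0.033 without WT replicate 1, 0.038 without KO replicate 6 and 0.17 without KO replicate 4. At an unadjusted p under 0.05 in edgeR's test, 1 was higher, Usp18 (3.82% of all tested genes were), and 1 lower, Ifng (3.44%). Ifng, the interferon made by CD8 T cells and an inducer of Ly6 genes, had 67.5, 24.2 and 65.0 CPM in KO replicates 4, 5 and 6, and 69.9, 108 and 154 CPM in WT replicates 1, 2 and 3, without overlap (edgeR adjusted p = 0.69). By level the list was led by Irf8, Jak1 and Irf1, with log2 folds of -0.045, 0.11 and 0.10.

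The machinery that attaches GPI anchors, and other anchored proteins, showed no call in edgeR or DESeq2 with all libraries. Without WT replicate 1, edgeR called 1 of them, Sema7a, a GPI-anchored semaphorin, as lower (log2 fold -0.65, adjusted p = 0.037). Of 28 tested genes of anchor synthesis, edgeR's test gave an unadjusted p under 0.05 to 3 that were higher (3.82% of all tested genes) and to 1 that was lower (3.44%). The median log2 fold was 0.0051, and -0.0023 with upper-quartile factors. It was 0.042 without WT replicate 1 and 0.039 without KO replicate 6. Pigt, a subunit of the transamidase, Pigq and Pigm led by level, with log2 folds of -0.014, -0.0062 and -0.0062. Of 15 other GPI-anchored lymphocyte genes, 0 had an unadjusted p under 0.05 in edgeR's test, and 6 had positive and 9 negative log2 folds. Thy1, the Thy-1 antigen, averaged 606 CPM ± 69.2 in KO libraries and 658 CPM ± 31.4 in WT libraries (SD, n = 3 each). H2-Q7, a nonclassical MHC gene whose reads may be shared with its near-identical neighbours, had a log2 fold of 0.12, and Cd52 one of 0.24. Of 3 tested Ly6/uPAR genes outside the cluster, the urokinase receptor gene Plaur, Lypd6b and Ly6g5b, 0 had an unadjusted p under 0.05 in edgeR's test.

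Ly6C marks memory-phenotype CD8 T cells, and other genes of that state were uneven. Of 19 tested, edgeR called 0, its unadjusted p was under 0.05 for 3 that were higher (3.82% of all tested genes) and 1 that was lower (3.44%). The median log2 fold was 0.16, and it was 0.37 without KO replicate 4, 0.088 without WT replicate 1 and 0.039 without KO replicate 6. DESeq2 called Slamf6 (adjusted p = 5.5e-06). Slamf6, a receptor of the SLAM family, had 88.5, 93.1 and 88.6 CPM in KO replicates 4, 5 and 6, and 67.5, 57.4 and 52.8 CPM in WT replicates 1, 2 and 3. EdgeR's adjusted p for it was 0.46 with the low-count filter, 0.019 without that filter and 0.011 without WT replicate 1. Bcl2, an inhibitor of apoptosis, was called lower by edgeR without WT replicate 1 (log2 fold -0.54, adjusted p = 0.046). Tcf7, the factor TCF-1, averaged 587 CPM ± 53.4 in KO libraries and 466 CPM ± 52.7 in WT libraries (SD, n = 3 each), without overlap. Il2rb, the receptor chain that marks memory-phenotype cells, averaged 493 CPM ± 33.6 in KO libraries and 555 CPM ± 38.7 in WT libraries. Ccr7 had a log2 fold of -0.098.

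Cells other than CD8 T cells also carry Ly6 transcripts, and in bulk samples fewer cells of a type and less RNA per cell cannot be told apart. Ly6c2 is a monocyte gene, and 13 macrophage and monocyte markers summed to 60.5, 26.6 and 69.6 CPM in KO replicates 4, 5 and 6, and 32.2, 46.6 and 27.9 CPM in WT replicates 1, 2 and 3. KO replicates 4 and 6 were highest in this sum and in Ly6c2. KO replicate 5 had the lowest marker sum of all 6 libraries and the lowest Ly6c2 level of the KO libraries. That level was 26.8 CPM, against 24.5 CPM in WT replicate 2, the highest WT library. Of the 13 markers 9 were tested, 7 with positive and 2 with negative log2 folds. The median was 0.39. With 1 library left out it ran from 0.25 (without WT replicate 3) to 0.68 (without WT replicate 2). Under the other alternatives it ran from 0.33 with a sex term to 1.04 with a 1 CPM filter. By level the list was led by Mpeg1, Cd68 and Vcam1, with log2 folds of 0.31, 0.39 and 1.68. Csf1r had a log2 fold of 1.18 and Adgre1 one of 0.94. The groups overlapped for each of these genes. In edgeR's test the unadjusted p was under 0.05 for Lyz2, lysozyme M, which was higher, and for Ccr2, the chemokine receptor of Ly6C-high monocytes, which was lower. Lyz2 had 226, 44 and 110 counts in KO replicates 4, 5 and 6 and 52, 44 and 15 counts in WT replicates 1, 2 and 3. Ccr2 had 20, 26 and 26 counts in KO libraries and 30, 49 and 40 in WT libraries. Cd14, which did not pass the low-count filter, had 1 to 5 counts in KO libraries and 2 to 7 in WT libraries. The part of these cells in the Ly6c2 values was not tested beyond this.

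Of the other marker lists, the endothelial, neutrophil and NK cell sums did not overlap between genotypes, and their part in the Ly6 values was not tested. Among single tested genes, every KO library lay above every WT library for 6.68% and below for 6.07%. No such share was worked out for sums. Endothelial markers summed to 105 to 133 CPM in KO libraries and 89.9 to 95.9 CPM in WT libraries, of which Pecam1, also expressed by T cells, took 102, 130 and 117 CPM in KO replicates 4, 5 and 6 and 92.5, 90.6 and 86.5 CPM in WT replicates 1, 2 and 3. Cdh5, the cadherin that defines endothelium, was at 0.201 CPM ± 0.127 in KO libraries and 0.320 CPM ± 0.153 in WT libraries (SD, n = 3 each). Neutrophil markers summed to 0.682 to 0.963 CPM in KO libraries and 0.245 to 0.547 CPM in WT libraries, and NK cell markers to 0.230 to 0.361 CPM in KO libraries and 0.423 to 1.25 CPM in WT libraries. These 2 sums rest on few reads, and only 1 gene of each list passed the low-count filter. Csf3r had 26, 7 and 33 counts in KO replicates 4, 5 and 6, and 6, 15 and 1 in WT replicates 1, 2 and 3. Klre1 had 8, 6 and 12 counts in the KO libraries and 16, 35 and 45 in the WT libraries. B cell markers (337 to 370 CPM in KO libraries and 345 to 406 CPM in WT libraries), of which Ighm took most, CD4 T cell markers and dendritic cell markers overlapped between the genotypes.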

How the data were processed

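Total RNA of 6 libraries was isolated with Trizol and prepared with Illumina protocols, per the labels' protocols. The authors deposited raw counts as 1 table, with a row per gene symbol and a column per library. HTSeq 0.9.1, DESeq2 and the build mm10 are named without a role, per the submitters' processing notes. Aligner, annotation, strand setting and read length were not given in the sources used here, so reads from overlapping genes on either strand may be mixed. The number of value columns left unused was 0.

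With R 4.3.3, counts were scaled by TMM, filtered by filterByExpr and fitted by edgeR 4.0.16 (robust glmQLFit, glmQLFTest), with a call at a Benjamini-Hochberg adjusted p under 0.05 over all tested genes. Folds are KO over WT, and SEs come from each fold and its F statistic. Alternatives were other scaling factors and filters, DESeq2 1.42.0, limma-voom (limma 3.58.1), a sex term, a summed Ly6c row and each library left out. The procedure was tested on simulated counts. RPKM are CPM per kilobase of merged GENCODE M21 exons (GRCm38, the mm10 assembly), and the protein-coding length was added after seeing the data. Sequences were aligned with Biopython 1.88. No pair of libraries was within sampling noise of each other. The members and the 15 gene lists were chosen with earlier results of these data known. By rule, the genes to name were the members, cluster genes averaging 1 CPM or more, the 3 most abundant genes of each list and called genes. The rule added the 4 interferon-stimulated genes with the smallest p, and the 3 genes most like each member. Some genes of this rule, such as Ighd, Cd79b and Itgax, are not described above. Others, such as Ifng, Slamf6, Bcl2, Sema7a, Lyz2, Ccr2, Cd14, Csf1r, Adgre1, Cd4 and Ly6g, were chosen after their values were seen. Of the list genes, 2 had no row.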

Additional observations from a re-analysis of the deposited data

How the results depend on the processing

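EdgeR called 1 gene with all 6 libraries, 10 without a low-count filter and 2 to 119 where the count moved on leaving out 1 library, with a lowest of 1. The 119 arose without WT replicate 1 and the 2 without WT replicate 2, and DESeq2 called 91. With RLE or upper-quartile factors, a 1 CPM filter, limma-voom, a sex term or a summed Ly6c row the count was 1. Genes at an unadjusted p under 0.05 numbered 1103, and 562 to 2325 with 1 library left out. The log2 folds of Ly6c1, Ly6c2 and Ly6e stayed positive under every alternative run. For Ly6c1 they ran from 0.20 (without KO replicate 6) to 0.78 (without WT replicate 2). The cause of these changes was not tested. No paired analysis was possible because no replicate number occurs in both genotypes (KO 4 to 6, WT 1 to 3).

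Apart from the genes given next, and Ly6a as described above, the log2 folds of genes named by rule kept their sign in every alternative run. For genes chosen after their values were seen, such as Ifng, Slamf6 and Lyz2, signs were not compared across the alternatives. With a sex term the log2 folds of Egfl7, Pigq and Aim1 were 0.0019, 0.017 and -0.027. On leaving out 1 library, log2 folds crossed 0 for Aim1 (-0.14 to 0.16), Bst2 (-0.14 to 0.048), Ccr7 (-0.22 to 0.011), Cd5 (-0.13 to 0.031), Egfl7 (-0.14 to 0.066), H2-Q7 (-0.055 to 0.24), Ighm (-0.064 to 0.021), Igtp (-0.0099 to 0.057), Irf8 (-0.11 to 0.063), Ly6d (-0.74 to 0.24), and likewise for Ly6g5b (-0.39 to 0.12), Ly6k (-0.17 to 0.78), Lynx1 (-0.18 to 0.33), Pigm (-0.0403 to 0.034), Pigq (-0.058 to 0.034), Pigt (-0.069 to 0.0404), Plaur (-0.35 to 0.011), Rps3a1 (-0.34 to 0.0059) and Zbtb46 (-0.11 to 0.19). For Ly6c1 a depth of 32 to 71 counts per library limits the precision.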
